A study of Mus musculus with 8 samples.

Results

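The serpins *Serpina3n*, *Serpinb1a*, *Serpinb6a*, *Serpine2*, *Serpini1* and *Serpinh1* were followed in mature oligodendrocytes, the cells that make myelin in the brain. These 6 genes were taken by name, and all 6 are among the 18833 genes of the deposited expression matrix, which lists 20 serpin genes in all. The matrix holds 12581 cells in 8 single-cell RNA sequencing libraries, 1 from the hippocampus and 1 from the cortex of each of 4 female mice. Mice 1 and 4 were wild-type (WT, Fire+/+) and mice 3 and 6 were FireΔ/Δ (labelled KO), which carry a deletion of the Fire super-enhancer of the *Csf1r* gene and have no microglia, while other macrophages of the nervous system remain. All mice were of a mixed CBA:C57Bl6J background. Mice 1 and 3 were aged 1 month 18 days, and mice 4 and 6 were younger, at 1 month 16 days. Each batch, numbered 3 to 6 in the cell table, held 1 tissue of 1 WT and 1 KO mouse of the same age, so that age and batch pair cannot be told apart. No batch held both tissues, so a difference between hippocampus and cortex cannot be told apart from one between batches. The second tissue, labelled cortex, was described in the study's methods as the rest of the left hemisphere, while hippocampi came from both hemispheres.

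Serpins are a family of proteins that mostly block serine proteases: the protease cuts an exposed loop of the serpin, and the serpin then changes shape and traps it. Secreted serpins act on proteases of the blood and of the space between cells, while serpins of clade B stay mainly inside cells, where they guard against the cell's own or incoming proteases. A few family members inhibit nothing, and *Serpinh1* is one of these. *Serpina3n* encodes a secreted inhibitor related to human α1-antichymotrypsin and is known in the brain as a gene of reactive glia.

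The value given below as a level is the mean, over the cells of a library or cluster, of the deposited log2 value, which is log2 of the count of unique molecular identifiers (UMIs, 1 per captured RNA molecule) divided by the cell's size factor, plus 1. A share is the percentage of cells with at least 1 UMI of the gene. Libraries held 904 to 2784 cells with a median of 9377 to 13725.5 UMIs per cell, and 21 cell barcodes occurred in more than 1 library. The oligodendrocyte markers *Mog*, *Mag* and *Mbp* were each detected in 100% of cells in all 8 libraries. Summed over 10 genes, microglial markers took 0.624 to 1.47 of every 10000 UMIs in WT and 0.152 to 0.219 in KO libraries, where *Tmem119* was at 0 in all 4. The 7 astrocyte markers took 2.32 to 2.76 in WT and 1.94 to 2.75 in KO libraries, and the 5 neuronal markers at most 0.186. The 5 progenitor markers took 0.106 to 0.184 in WT and 0.140 to 0.415 in KO libraries. The 5 endothelial markers took 0.0473 and 0.105 in WT hippocampus (mice 1 and 4) against 0.253 and 0.259 in KO hippocampus (mice 3 and 6), and 0.211 to 0.255 in cortex libraries of both genotypes. The 4 erythrocyte markers took 0.316 to 9.94, with the highest values in the hippocampus of mice 1 and 3, and pericyte and fibroblast markers took at most 0.0713. The part of these transcripts in the serpin values was not tested. The matrix holds no other cell type against which a share could be set as background, so low shares may include free RNA.

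*Serpina3n* (ENSMUSG00000021091) occupies 104406729 to 104414329 on chromosome 12 of GRCm38 (plus strand). It overlaps no other annotated gene, but 22 protein-coding serpin genes lie within 1 Mb of it, of which 3 are in the matrix, and how UMIs of close copies were divided among them is uncertain. Its promoter is shown because this gene differs most between the genotypes. The RefSeq sequence of GRCm38.p6 covers chr12:104406458-104406757 on the plus strand, 250 bases before and 50 bases from the start that RefSeq annotates, and the capitals mark the 50 bases from that start onward. The RefSeq start lies upstream of the GENCODE start given above, so the first of the capitals precede the latter.

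*Serpina3n* promoter: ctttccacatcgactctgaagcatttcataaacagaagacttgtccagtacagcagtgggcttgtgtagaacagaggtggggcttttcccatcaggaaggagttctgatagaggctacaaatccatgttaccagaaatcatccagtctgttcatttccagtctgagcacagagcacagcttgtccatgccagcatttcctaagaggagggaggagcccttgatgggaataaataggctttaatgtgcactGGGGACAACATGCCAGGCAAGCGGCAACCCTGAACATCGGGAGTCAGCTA

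G and C make up 48.7% of these 300 bases, against 77.7% in the *Serpine2*, 62.3% in the *Serpinh1* and 60.0% in the *Serpini1* promoter. The letters TTCNNNGAA, a core motif of STAT transcription factors that reads the same on both strands, occur in 8.30% of 32851 mouse promoters of this length. The C/EBP motif TTNCGNAA, also the same on both strands, occurs in 2.47% of them. Neither is in the *Serpina3n* promoter window, while the windows of *Serpinb6a* held 2 matches to the first and 1 to the second. No match was found in the windows of *Serpine2*, *Serpini1* and *Serpinh1*.

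*Serpina3n* was found in few WT oligodendrocytes and in a large part of KO oligodendrocytes. In WT mice its level was 0.012 (mouse 1) and 0.057 (mouse 4) in hippocampus, and 0.010 and 0.013 in cortex. In KO mice it was 0.82 (mouse 3) and 0.68 (mouse 6) in hippocampus, and 0.37 and 0.40 in cortex. The KO libraries all lay above the WT libraries, and the hippocampus of mouse 4 was the highest of the WT libraries. The share of cells with a *Serpina3n* UMI was 1.43% and 6.69% in WT hippocampus (mice 1 and 4), 1.49% and 1.51% in WT cortex, 41.8% and 37.2% in KO hippocampus (mice 3 and 6) and 21.6% and 28.0% in KO cortex. The 95% Clopper-Pearson intervals, which like all intervals here cover counting error only, were 5.25% to 8.37% for the WT hippocampus of mouse 4 and 19.2% to 24.2% for the KO cortex of mouse 3. With every cell thinned to 5000 UMIs the shares were 0.569% to 3.11% in WT and 15.1% to 33.5% in KO libraries.

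**Figure D1:**
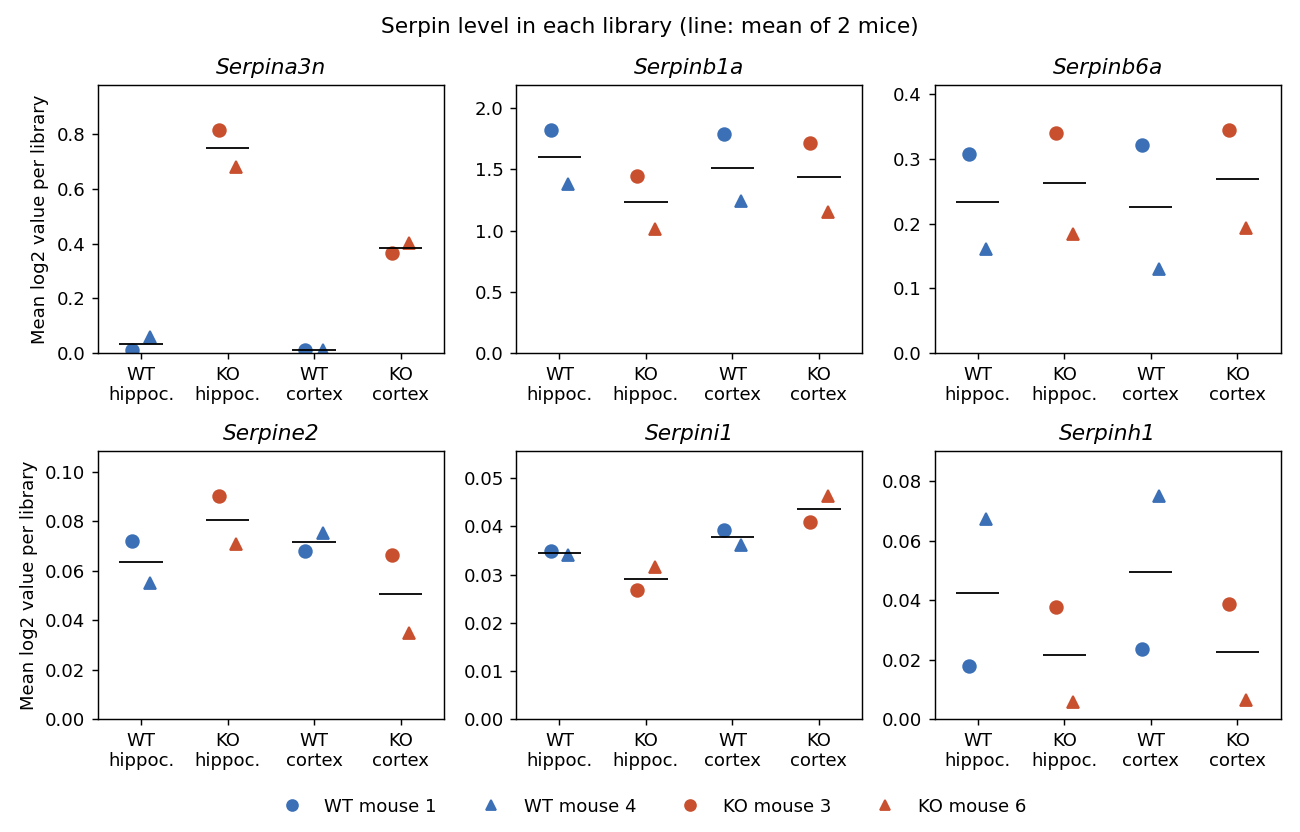
Level (mean log2 value per library, y axis) of each serpin in WT and KO hippocampus and cortex. Each point is a library (circles mice 1 and 3, triangles mice 4 and 6), the line is the mean of 2 mice, and each panel has its own y axis from 0. *Serpina3n* separates the genotypes, from 0.057 at most in WT to 0.37 at least in KO libraries, whereas *Serpinb1a* and *Serpinb6a* separate circles from triangles. The share of all genes that separate in either way is not given here.

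With both tissues of a mouse weighted equally, the *Serpina3n* level was 0.023 ± 0.017 in WT and 0.57 ± 0.035 in KO mice (SD, n = 2 each), which differ by 0.54 on the log2 scale with a standard error (SE) of 0.024. Counted as UMIs, this was 0.0303 ± 0.0231 in WT and 1.57 ± 0.173 in KO mice per 10000 (SD, n = 2 each), a ratio of 51.8. The hippocampus of mouse 4 carried most of the WT value, with 0.0768 against 0.0124 to 0.0164 in the other 3 WT libraries, and without it, an alternative chosen after seeing the data, the ratio was 103. Within batches 3 to 6 the ratio was 156, 77.6, 25.1 and 58.9. In limma, fitted over the 9257 genes that 5% or more of the cells held, the unadjusted p was 0.000108 and the adjusted p 0.498. *Serpina3n* passed the 5% filter only through the KO libraries. Limma called 0 genes at an adjusted p under 0.05 (0.0%), so 0 of the 4 listed serpins tested, and 209 genes (2.26%) had an unadjusted p under 0.05, *Serpina3n* alone among the 4. edgeR on summed UMIs called 8 genes (0.0864%), of which *Serpina3n* was the only listed serpin (log2 fold change 5.87, adjusted p = 0.0286). Limma on log2 of the mean normalized value plus 0.1 called 2 genes (0.0216%), among them *Serpina3n*, with a difference of 3.25 (adjusted p = 0.00549). Whether *Serpina3n* passed thus depended on the scale, while its direction was the same in every library. The study had picked out this gene on these cells, so the difference is not independent evidence. An exact permutation test of 2 mice against 2 cannot give a two-sided p under 0.333.

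Each batch number covers 1 WT and 1 KO library of 1 tissue, and the labels do not state which steps these shared. For the filtering of cells, the study's methods described batch 6, here a cortex batch, as lower in quality than the rest. Within batches the difference in *Serpina3n* level was 0.80 in batch 3 and 0.62 in batch 5 for hippocampus. For cortex it was 0.36 in batch 4 and 0.39 in batch 6. *Serpinb1a* also kept 1 direction in all 4 batches, lower in KO by 0.069 to 0.38, as did *Serpinb6a*, higher in KO by 0.024 to 0.063. The differences of *Serpine2*, *Serpini1* and *Serpinh1* changed sign between batches. The share of all genes that keep 1 direction is not given here.

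**Figure D2:**
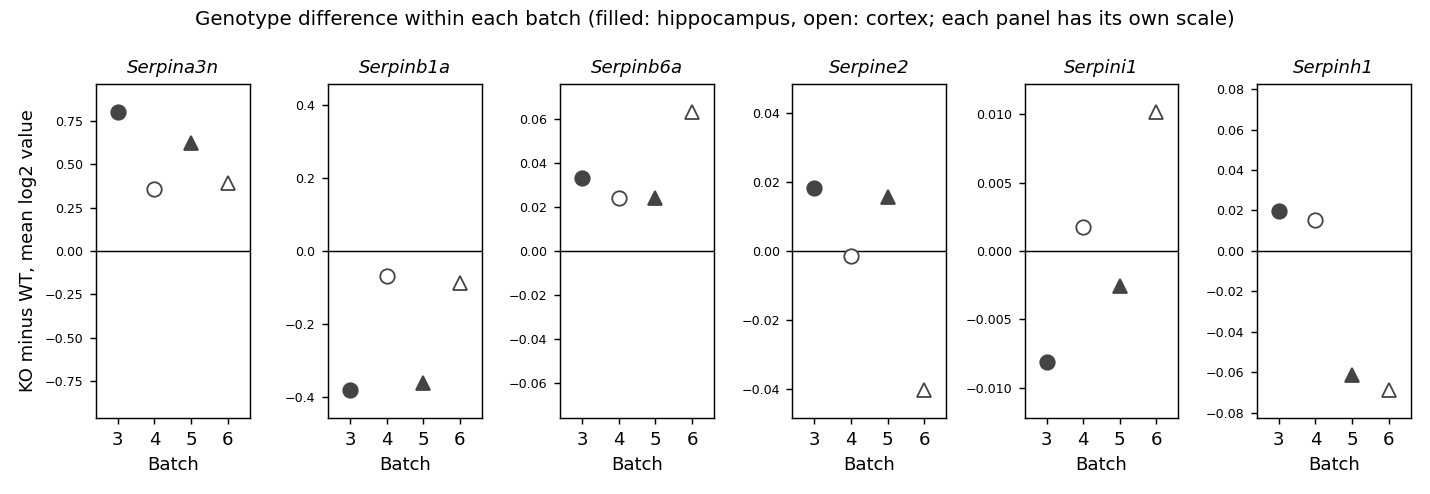
KO minus WT difference in level (mean log2 value, y axis, own scale per panel) within batches 3 to 6 (x axis), with hippocampus filled and cortex open. Each point is 1 KO library minus 1 WT library. *Serpina3n* lies above 0 in all batches, *Serpinb1a* lies below 0 with its larger differences in hippocampus (-0.38 and -0.36), and *Serpinh1* lies above 0 in batches 3 and 4 and below it in batches 5 and 6.

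The authors divided the oligodendrocytes into 4 clusters, Oligo1 to Oligo4, from the same expression values, so levels by cluster are a description and were not tested against each other. Oligo1 held 1552 KO cells and 6 WT cells, the latter all from the hippocampus of mouse 4. In Oligo1 of KO mice the share of cells with a *Serpina3n* UMI was 85.6% and 89.5% in hippocampus (mice 3 and 6) and 79.6% and 85.7% in cortex, and the level was 1.70 to 2.07. Of the 6 WT cells in Oligo1, 4 had a *Serpina3n* UMI. Outside Oligo1 the order of levels was Oligo2, Oligo4, Oligo3 in each of the 4 KO libraries and Oligo2, Oligo3, Oligo4 in each of the 4 WT libraries.

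In Oligo2 the share was 44.9% and 42.0% in KO hippocampus (mice 3 and 6) and 23.2% and 38.3% in KO cortex, against 3.44% and 13.6% in WT hippocampus (mice 1 and 4) and 3.50% and 2.49% in WT cortex. In Oligo3, the largest cluster, it was 6.95% to 12.9% in KO and 0.909% to 5.13% in WT libraries. In Oligo4 it was 19.1% to 27.4% in KO libraries, against 1 of 149 and 1 of 125 cells in WT hippocampus and 0 of 38 and 0 of 97 cells in WT cortex (mice 1 and 4). Taking 3 counts as the limit that a count of 0 allows, these shares could reach 7.89% and 3.09%, and the upper Clopper-Pearson bounds were 9.25% and 3.73%. The groups did not overlap in any of these 3 clusters, and the share of all genes with no overlap is not given here. With every cell thinned to 5000 UMIs, the KO shares were 64.3% to 77.7% in Oligo1, 15.4% to 31.2% in Oligo2, 3.28% to 8.11% in Oligo3 and 10.8% to 18.3% in Oligo4. Thinned WT shares were 1.19% to 6.13% in Oligo2, 0.391% to 2.25% in Oligo3 and at most 0.368% in Oligo4.

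**Figure D3:**
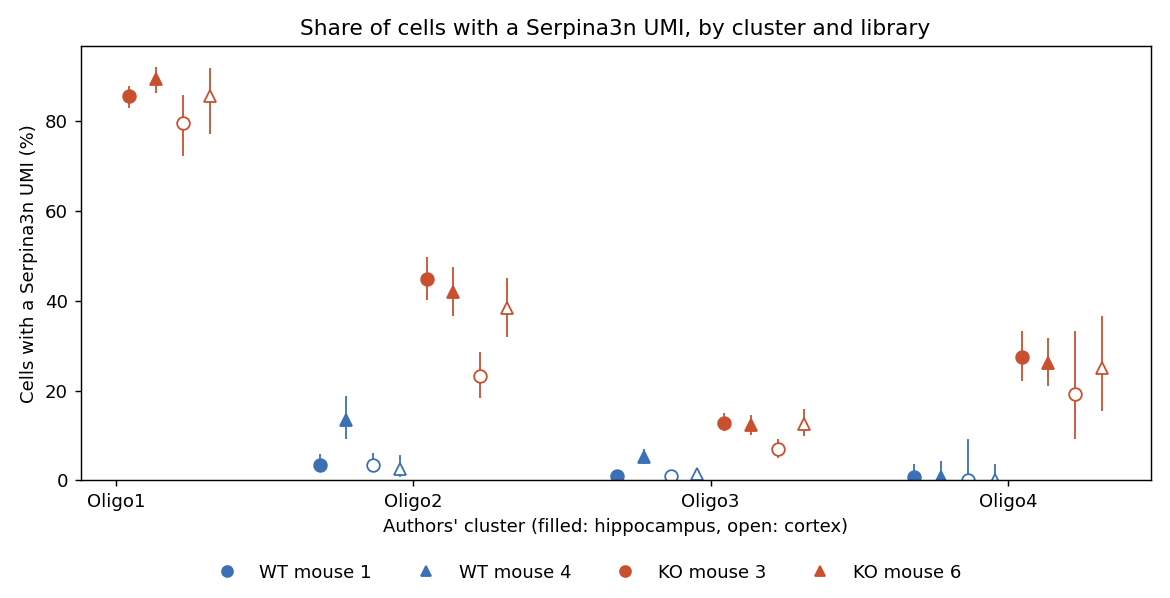
Share of cells with a *Serpina3n* UMI (%, y axis) by cluster (x axis) in each library with at least 20 cells of that cluster. Lines are 95% Clopper-Pearson intervals, filled points are hippocampus and open points cortex. KO libraries reach 79.6% to 89.5% in Oligo1 and lie above the WT libraries in Oligo2, Oligo3 and Oligo4.

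Over the cells of Oligo2 to Oligo4 together, the *Serpina3n* level was 0.022 ± 0.015 in WT and 0.23 ± 0.016 in KO mice (SD, n = 2 each). They differed by 0.21 (SE 0.016, limma unadjusted p = 0.000613 and adjusted p = 1.00). Limma called 0 of 9232 genes (0.0%) and 133 (1.44%) had an unadjusted p under 0.05. edgeR called 3 genes (0.0325%) and no listed serpin (*Serpina3n*, adjusted p = 0.0736), and limma on log2 of the mean plus 0.1 called 2 genes (0.0217%), among them *Serpina3n* (adjusted p = 0.0365). The KO minus WT difference was 0.47 in Oligo2 (SE 0.026), 0.090 in Oligo3 (SE 0.014) and 0.30 in Oligo4 (SE 0.022). Limma called 0 genes (0.0%) in each of these clusters, and the shares of genes with an unadjusted p under 0.05 were 1.5% in Oligo2, 1.13% in Oligo3 and 3.01% in Oligo4. On the scale of log2 of the mean plus 0.1, where 0.0215%, 0.0109% and 0.128% of genes were called, *Serpina3n* passed in Oligo2 and Oligo4 and not in Oligo3 (adjusted p = 0.000491, 1.21e-05 and 0.404 from limma). In Oligo3, in Oligo4 and in Oligo2 to Oligo4 together the gene again passed the 5% filter only through the KO libraries, with a WT mean share of 2.14%, 0.368% and 2.69%, so that a difference there followed from being tested. The size of the difference was not tested between clusters.

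KO cells differed in how many *Serpina3n* molecules they carried as well as in how often they carried any. In Oligo1 of KO mice 48.3% of cells had 5 or more UMIs, the median was 4 and the highest count 58. This share was 9.73% in Oligo2, 4.13% in Oligo4 and 0.187% in Oligo3 of KO mice. In WT mice 4.70% of Oligo2 cells had exactly 1 UMI and 0.0903% had 5 or more. Oligo1 cells gave 84.9% and 80.8% of all *Serpina3n* UMIs in the KO hippocampus of mice 3 and 6, and 73.4% and 63.1% in their cortex.

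**Figure D4:**
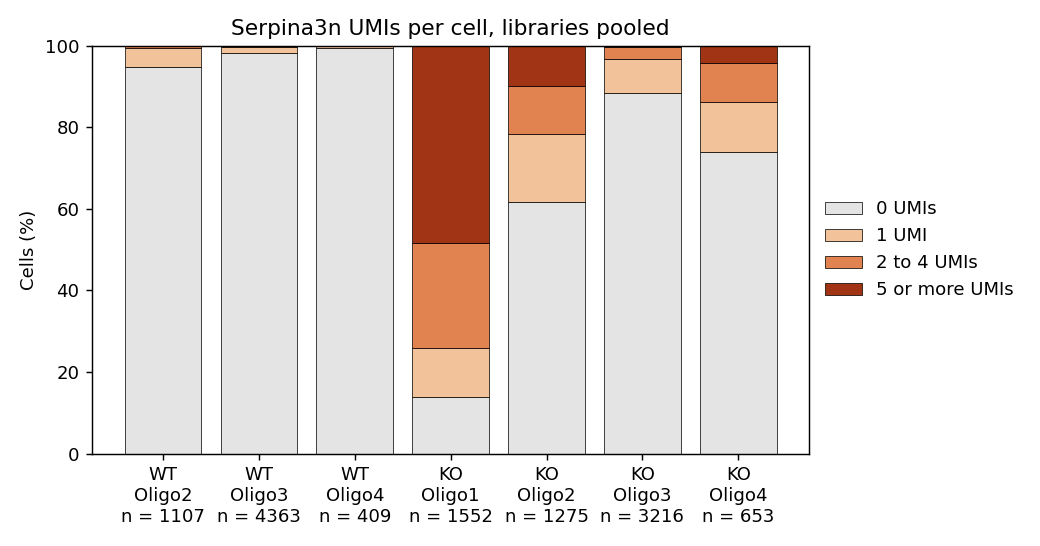
Percentage of cells (y axis) with 0, 1, 2 to 4 and 5 or more *Serpina3n* UMIs in each cluster of WT and KO mice, libraries pooled; n is the number of cells. The class of 5 or more UMIs makes up 48.3% of KO Oligo1 cells and 9.73% of KO Oligo2 cells.

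Outside Oligo1, KO cells with a *Serpina3n* UMI also more often held UMIs of *C4b*, which encodes complement component C4. Its share was 74.5% to 77.4% in *Serpina3n*-positive and 21.7% to 38.8% in *Serpina3n*-negative cells of the 4 KO libraries. Median depth was slightly higher in the positive cells (10092 against 9339 UMIs in the hippocampus of mouse 3). In the WT hippocampus of mouse 4 the *C4b* share was 33.3% in positive and 10.2% in negative cells. It was 2.94% to 15.0% and 4.36% to 6.15% in the other WT libraries. The clusters differed in both genes, with *C4b* in 37.3% to 58.3% of KO cells in Oligo2, 22.4% to 41.2% in Oligo3 and 51.1% to 70.7% in Oligo4. The part of the mix of clusters in these shares was not tested. *Serpinb1a* was found in 87.0% and 84.7% of positive and negative cells in the KO cortex of mouse 3, 76.3% and 71.4% in that of mouse 6, 78.5% and 76.6% in the KO hippocampus of mouse 3 and 67.6% and 61.3% in that of mouse 6. *Serpini1* was found in 3.48% and 6.77% of positive and negative cells in the KO cortex of mouse 3 and in 4.14% and 7.85% in that of mouse 6, against 2.80% and 3.54%, and 4.40% and 4.02%, in their hippocampus. *Serpinh1* was found in 8.70% and 5.17% in the KO cortex and 6.78% and 4.07% in the KO hippocampus of mouse 3, where positive cells had the larger share, and in 1.78% and 0.628%, and 0.629% and 0.771%, in mouse 6. Cells are not replicates, and these shares were not tested.

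*Serpina3n* was higher in hippocampus than in cortex in both KO mice, by 0.45 in mouse 3 and 0.28 in mouse 6, and in WT mice by 0.0021 in mouse 1 and 0.045 in mouse 4. Over the 8 libraries, with genotype in the model, the difference was 0.19 (SE 0.074, limma unadjusted p = 0.0375 and adjusted p = 0.911). Hippocampus was in batches 3 and 5 and cortex in batches 4 and 6. Tissue and batch thus cannot be told apart, also with the mouse as a block. Limma called 0 of 9257 genes (0.0%) between the tissues, and 490 (5.29%) had an unadjusted p under 0.05. edgeR called 0 as well, with 445 at an unadjusted p under 0.05. The difference was smaller without mouse 3 (0.11) and larger without mouse 1 (0.26). In the cells of Oligo2 to Oligo4 it was 0.052 (SE 0.022, limma adjusted p = 0.961). In that comparison 0 genes passed in limma (0.0%) and 0 in edgeR, 5.16% had an unadjusted p under 0.05 in limma, and without mouse 3 the *Serpina3n* difference was 0.024.

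Within Oligo1 of KO mice the *Serpina3n* level was 1.99 and 2.07 in hippocampus (mice 3 and 6) and 1.70 and 1.83 in cortex. The tissues differed by 0.27 (SE 0.057, limma adjusted p = 0.999). Limma called 0 genes here (0.0%), and 4.38% had an unadjusted p under 0.05. With the mouse as a block the SE was 0.026 and the adjusted p 0.0844. The tissue difference of KO mice exceeded that of WT mice by 0.34 over all oligodendrocytes (SE 0.065, limma unadjusted p = 0.00673 and adjusted p = 0.792). Of the genes in this test 0 were called by limma (0.0%) and 6.2% had an unadjusted p under 0.05. Restricted to Oligo2 to Oligo4, an alternative chosen after seeing the data, it was 0.062 (SE 0.041). Oligo1 made up more of the hippocampus than of the cortex libraries, with 859 of 2784 and 448 of 1934 cells against 147 of 1074 and 98 of 904. The study also stained SERPINA3N protein in cells of the oligodendrocyte lineage. Positive cells were found almost only in KO white matter (corpus callosum and fimbria), and were not detected in grey matter of hippocampus and interbrain. The part of white matter in each library was not tested.

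*Serpinb1a* (ENSMUSG00000044734), a clade B inhibitor of neutrophil elastase and related proteases, occupies 32842092 to 32851185 on chromosome 13 (minus strand), with 12 further serpin genes within 1 Mb, of which 3 are in the matrix. It was the most often detected of the 6 serpins, with a UMI in 61.7% to 84.4% of cells per library. Its level was 1.82 and 1.38 in WT hippocampus (mice 1 and 4), 1.79 and 1.24 in WT cortex, 1.44 and 1.02 in KO hippocampus (mice 3 and 6) and 1.72 and 1.15 in KO cortex. The libraries of mice 1 and 3 (1.44 to 1.82) all lay above those of mice 4 and 6 (1.02 to 1.38), and the genotypes overlapped. Such a split was not particular to this gene. Across genes, the deviations of same-age WT and KO libraries from their group means correlated at 0.73 (hippocampus) and 0.66 (cortex). The share of all genes that separate these pairs of mice is not given here.

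By cluster, *Serpinb1a* was highest in Oligo2 and lowest in Oligo4 in all 8 libraries, with Oligo3 and, in KO libraries, then Oligo1 between them. In WT mice its share was 98.0% to 99.2% in Oligo2, 67.9% to 82.1% in Oligo3 and 23.2% to 44.7% in Oligo4. In KO mice it was 90.9% to 98.9% in Oligo2, 64.6% to 83.4% in Oligo3, 52.0% to 78.9% in Oligo1 and 21.3% to 29.2% in Oligo4. The median was 8 UMIs per cell in WT Oligo2 and 0 in WT Oligo4. *Serpina3n*, in contrast, was higher in Oligo4 than in Oligo3 of KO mice.

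**Figure D5:**
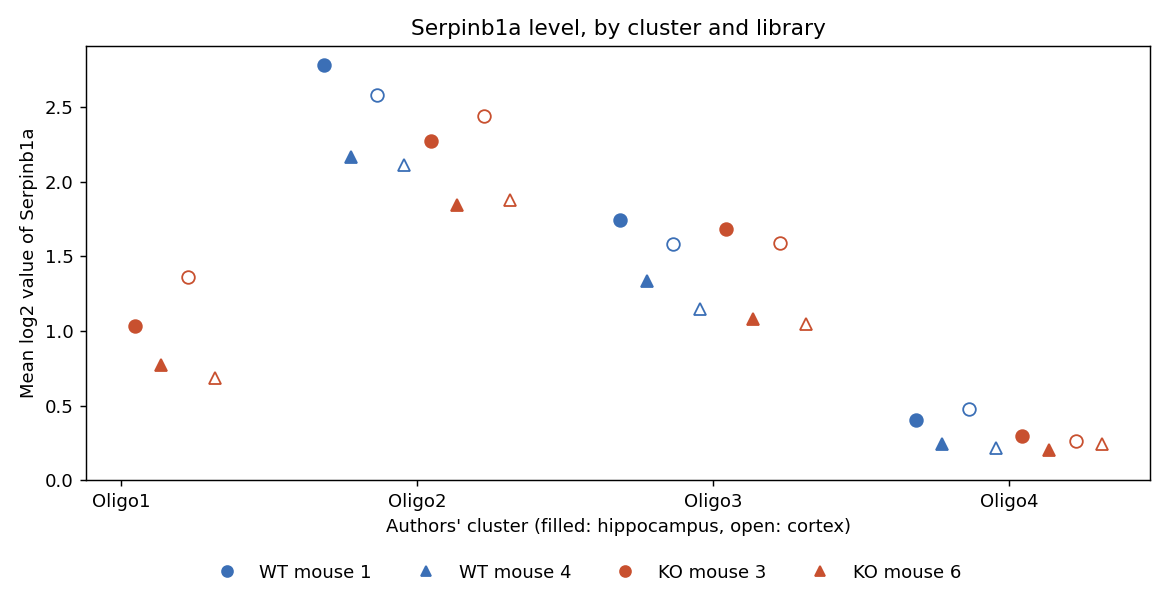
Level of *Serpinb1a* (mean log2 value, y axis) by cluster (x axis) in each library with at least 20 cells of that cluster, with hippocampus filled and cortex open. Every library has its highest value in Oligo2 (1.84 to 2.78) and its lowest in Oligo4 (0.205 to 0.476), and within a cluster the circles (mice 1 and 3) mostly lie above the triangles (mice 4 and 6).

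Between genotypes the *Serpinb1a* level was 1.56 ± 0.35 in WT and 1.33 ± 0.35 in KO mice (SD, n = 2 each), and the difference of -0.22 was smaller than this spread (SE 0.27, limma adjusted p = 1.00). Within batches, KO was lower by 0.38 and 0.36 in hippocampus (batches 3 and 5) and by 0.069 and 0.086 in cortex (batches 4 and 6). With mice of the same age as a block the SE of the difference over all oligodendrocytes was 0.0077. The p from limma was 0.000219 unadjusted and 0.285 adjusted, in a fit where 10.5% of all genes had an unadjusted p under 0.05. These values include the Oligo1 cells, which came almost only from KO mice. Over Oligo2 to Oligo4 the mean difference was -0.13 (SE 0.29). There KO was lower by 0.20 and 0.28 in hippocampus (batches 3 and 5) and by 0.013 and 0.030 in cortex (batches 4 and 6). In Oligo2 the KO level was lower in all 4 batches, by 0.51, 0.14, 0.32 and 0.24 in batches 3 to 6, with a mean of -0.30 (SE 0.28, limma adjusted p = 1.00). In Oligo3 it was lower in 3 of 4 batches, by 0.062 in batch 3, 0.26 in batch 5 and 0.097 in batch 6, and 0.0025 higher in batch 4.

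*Serpinb1a* was lower in hippocampus than in cortex by 0.27 and 0.14 in the KO mice 3 and 6, and higher in hippocampus by 0.039 and 0.14 in the WT mice 1 and 4. The test of this difference between genotypes gave -0.29 (SE 0.062, limma unadjusted p = 0.00933 and adjusted p = 0.792). In Oligo2 to Oligo4 alone it was -0.22 (SE 0.038, limma unadjusted p = 0.00455 and adjusted p = 0.889). Within clusters, hippocampus minus cortex in KO mice 3 and 6 was -0.16 and -0.033 in Oligo2, and 0.094 and 0.028 in Oligo3. It was 0.036 and -0.040 in Oligo4, and -0.33 and 0.085 in Oligo1. In WT mice 1 and 4 it was 0.20 and 0.050 in Oligo2, 0.16 and 0.19 in Oligo3, and -0.069 and 0.027 in Oligo4. The part of the mix of clusters in the tissue values was not tested. The tissue difference over both genotypes was -0.058 (SE 0.21) and turned positive without mouse 3 (0.013).

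*Serpinb6a* (ENSMUSG00000060147), a second clade B serpin that inhibits cathepsin G, spans 33917918 to 34002794 on the minus strand of chromosome 13. Its span overlaps *Nqo2*, *Ripk1* and an antisense gene on the plus strand, and the sources used here do not state whether strand was used in counting. Its level was 0.31 and 0.16 in WT hippocampus (mice 1 and 4), 0.32 and 0.13 in WT cortex, 0.34 and 0.18 in KO hippocampus (mice 3 and 6) and 0.35 and 0.19 in KO cortex. Mice 1 and 3 (31.0% to 41.8% of cells) again lay above mice 4 and 6 (16.0% to 25.8%), with no overlap. The share of all genes with no overlap between these pairs of mice is not given here.

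The genotype difference in *Serpinb6a* level was 0.036 (SE 0.090, limma adjusted p = 1.00), and within batches KO was higher in all 4, by 0.024 to 0.063. The tissue difference was 0.00090 (SE 0.065). Among clusters its levels differed less than those of *Serpinb1a*: in KO mice the median library level was 0.30 in Oligo2, 0.29 in Oligo1, 0.26 in Oligo4 and 0.23 in Oligo3, and in WT mice 0.29 in Oligo2, 0.22 in Oligo4 and 0.22 in Oligo3. Oligo2 ranked first in 7 of the 8 libraries, with Oligo1 first in the hippocampus of mouse 3.

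*Serpine2* (ENSMUSG00000026249), which encodes protease nexin-1, a secreted inhibitor of thrombin and plasminogen activators, occupies 79794197 to 79861180 on chromosome 1 (minus strand). Its level was 0.072 and 0.055 in WT hippocampus (mice 1 and 4), 0.068 and 0.075 in WT cortex, 0.090 and 0.071 in KO hippocampus (mice 3 and 6) and 0.066 and 0.035 in KO cortex. The genotypes overlapped, and shares ran from 4.98% in the KO cortex of mouse 6 to 9.52% in the KO hippocampus of mouse 3. The genotype difference was -0.0020 (SE 0.015, limma adjusted p = 1.00), and edgeR gave it the opposite sign (0.17). The tissue difference was 0.011 (SE 0.013, limma adjusted p = 0.999). Both KO mice had more in hippocampus (by 0.024 and 0.036), and the WT mice differed in sign (0.0043 and -0.020).

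*Serpini1* (ENSMUSG00000027834) encodes neuroserpin, an inhibitor of tissue plasminogen activator made mainly by neurons. It occupies 75557547 to 75643495 on chromosome 3 (plus strand) and overlaps the gene model *Gm37672* on the same strand. It was found in 3.13% to 6.75% of cells per library and did not pass the 5% filter over all oligodendrocytes, so it was not tested there. Its level was 0.035 and 0.034 in WT hippocampus, 0.039 and 0.036 in WT cortex, 0.027 and 0.032 in KO hippocampus and 0.041 and 0.046 in KO cortex. The cortex library was the higher of the pair in all 4 mice, by 0.014 and 0.015 in KO mice 3 and 6 and by 0.0044 and 0.0021 in WT mice 1 and 4. In the 2 clusters where it was tested, the genotype difference was 0.0044 in Oligo2 (SE 0.015) and -0.0095 in Oligo4 (SE 0.021), with limma adjusted p = 1.00 in both.

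*Serpinh1* (ENSMUSG00000070436) encodes HSP47, a collagen chaperone of the endoplasmic reticulum that inhibits no protease, and occupies 99345376 to 99353239 on chromosome 7 (minus strand). Its share of cells was 1.98% and 8.60% in WT hippocampus (mice 1 and 4), 3.20% and 8.90% in WT cortex, 4.56% and 0.724% in KO hippocampus (mice 3 and 6) and 5.21% and 0.885% in KO cortex. The libraries of mouse 4 were thus the highest and those of mouse 6 the lowest, in both tissues. The levels followed the same order, with 0.067 and 0.075 in the hippocampus and cortex of mouse 4 and 0.0058 and 0.0063 in those of mouse 6.

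Within batches, the KO minus WT difference in *Serpinh1* level was 0.020 and 0.015 in batches 3 and 4 and -0.061 and -0.069 in batches 5 and 6. The gene passed the filter only in Oligo4, where the difference was -0.048 (SE 0.035, limma adjusted p = 1.00). In that cluster the share was 17.6% in the hippocampus of mouse 4 and 0.746% in that of mouse 6.

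Over the 28 combinations of library and cluster with at least 20 cells, the genes whose level followed *Serpina3n* most closely among 9183 were *Cebpd* (Pearson r = 0.98), which encodes a transcription factor of the C/EBP family, *Masp1* (0.97) and *C4b* (0.97). For *Serpinb1a* they were *Sept8* (0.98), *Spock3* (0.97) and *Gng11* (0.97), and for *Serpinb6a* *Pfn1* (0.95), *B430010I23Rik* (0.93) and *Atp5h* (0.92). The closest genes were *Tubb2b* (0.80), *Fabp7* (0.72) and *Fam136a* (0.70) for *Serpine2*, and *Oxa1l* (0.78), *Dis3l2* (0.66) and *Gm9993* (0.65) for *Serpini1*. The 28 points share mice, libraries and depth and are not independent. *Serpina3n* and *Serpinb1a* had an r of -0.12 with each other.

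For *Serpinh1* the closest genes were *Ints4* (r = 0.85), *Sp7* (0.84) and *Capn5* (0.79). Of these, *Ints4* (97480956 to 97541395) and *Capn5* (98121559 to 98178274) lie on chromosome 7 as *Serpinh1* does, 1804 kb and 1167 kb from it. *Ints4* had levels of 0.25 and 0.24 in the hippocampus and cortex of mouse 4 and 0.14 and 0.16 in those of mouse 6. *Capn5* had levels of 0.22 and 0.20 in mouse 4 and 0.097 and 0.11 in mouse 6. Like *Serpinh1*, both genes had their lowest levels in mouse 6. The mice were of a mixed background, and which parental sequence each of them carried in this region was not tested, so the *Serpinh1* differences between genotypes and between mice cannot be told apart.

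Of 56 other serpin genes listed, 14 were in the matrix and 1, *Serpind1*, was found in at least 5% of cells. *Serpind1* encodes heparin cofactor II, an inhibitor of thrombin. It occupies 17331371 to 17343575 on chromosome 16, inside *Pi4ka* on the opposite strand, from which its reads cannot be told apart if strand was not used. Its share was 34.2% and 36.1% in the hippocampus and cortex of mouse 3 and 16.5% to 20.1% in the other 6 libraries, and the genotype difference was 0.091 (SE 0.090, limma adjusted p = 1.00). *Serpinc1*, which encodes antithrombin, was found in 1.16% of all cells, and the other 12 in at most 0.397% each.

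Proteases that serpins can block, their receptors, and collagen genes were counted as lists beside the serpins. Between genotypes, over all oligodendrocytes, limma called 0 genes in each list, and 3 proteases, 0 receptors and 0 collagen genes had an unadjusted p under 0.05, against 2.26% of all genes tested. Of the 24 proteases listed, 5 were tested, with 3 higher and 2 lower in KO mice and a median difference of 0.22, against 0.0013 over all genes tested. The first in size were *Htra1*, a secreted serine protease, and *Masp1*, a protease of the lectin pathway of complement. The level of *Htra1* was 0.90 to 1.00 in WT and 1.07 to 1.24 in KO libraries, with a mean difference of 0.24 (SE 0.044, limma unadjusted p = 0.00931 and adjusted p = 1.00). The level of *Masp1* was 0.064 to 0.16 in WT and 0.24 to 0.47 in KO libraries, with a mean difference of 0.24 (SE 0.026, limma unadjusted p = 0.00193 and adjusted p = 1.00). For both genes the WT and KO libraries did not overlap, and the share of all genes tested with no overlap is not given here. Over Oligo2 to Oligo4, without the Oligo1 cells, the differences were 0.16 (SE 0.037) for *Htra1* and 0.12 (SE 0.025) for *Masp1*.

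Of 16 receptors and partners of serpins, 4 were tested and all 4 had a positive difference, with a median of 0.021. Among them *Vldlr*, an endocytic receptor, differed by 0.021 (SE 0.073). Of 37 collagens and collagen-processing genes, which *Serpinh1* would serve, 9 were tested, with 6 higher and 3 lower and a median of 0.029. *Ppib*, a prolyl isomerase of the endoplasmic reticulum, differed by 0.075 (SE 0.045) and *Plod1*, a lysyl hydroxylase, by 0.045 (SE 0.034). Neither difference passed (adjusted p = 1.00 from limma).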

How the data were processed

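The authors counted UMIs with Cell Ranger 5.0.0 on mm10 and deposited, for mature oligodendrocytes, values on the log2 scale: each UMI count was divided by a scran size factor (a score per cell) before 1 was added, with no batch correction. Their cell table gives total counts, batch and cluster. All 42420937 values above 0 gave whole UMIs within 0.001, and the matrix held at least 99.2% of each cell's total. Libraries summed to 12015518 to 27848236 UMIs. The authors gated cells by scatter against doublets, and no doublet caller was run here.

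Values were averaged per library and cluster, with the mouse as replicate. Genes held by 5% or more of cells were tested with limma 3.58.1 (R 4.3.3) or, on summed UMIs, edgeR 4.0.16 (quasi-likelihood), with Benjamini-Hochberg adjustment over all genes and a threshold of 0.05. Both were tested on simulated data. Same-numbered libraries come from 1 animal, and their deviations correlated across genes at 0.84 (WT) and 0.85 (KO). Those of WT and KO mice of the same age, which are different animals, correlated at 0.73 (hippocampus) and 0.66 (cortex). The part of the shared animal in the former values was not tested. Gene positions are from GENCODE vM21 and promoters from RefSeq, matched for 5 of the 6 serpins. The members and lists were chosen with earlier results of these data known. From the other lists the 2 genes with the largest genotype difference were named, except 1 that is not reported here, and for likeness the 3 genes with the highest r; *C4b* was added.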

Additional observations from a re-analysis of the deposited data

Results flagged for a closer look

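Among the 4 WT libraries, the *Serpina3n* level of the hippocampus of mouse 4 (0.0574) stood apart from the other 3, with a gap to its nearest neighbour above Dixon's 95% critical value. For independent values, chance alone flags about 1 in 20 such groups. The WT libraries came in pairs from the same mice, so this rate need not hold here. Without the 6 Oligo1 cells of that library its level was 0.0513.

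The KO minus WT difference in *Serpinh1* level was 0.0175 between mice 3 and 1 and -0.0652 between mice 6 and 4, with both tissues on the same side in each pair. This difference between the 2 age and batch pairs was not tested.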

How the results depend on the processing

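*Serpina3n* kept its direction under every alternative run. Where the filter on the share of cells applied, a higher KO value mostly followed from being tested. The WT mean share was 2.78% over all oligodendrocytes, 2.69% in Oligo2 to Oligo4, 2.14% in Oligo3 and 0.368% in Oligo4. There the gene passed the filter only through the KO libraries. The gene had also been picked out on these cells by the study, so passing a setting is not independent evidence. Over all oligodendrocytes its KO minus WT difference passed the threshold on log2 of the mean plus 0.1 (3.25) and in edgeR with TMM (5.87) and RLE (5.87) factors, and over Oligo2 to Oligo4 on log2 of the mean plus 0.1 (1.78). In these settings, and on log2 of the mean plus 0.1 in Oligo2 and Oligo4, 1 listed serpin was called, *Serpina3n*, against 0 in the main analysis. With cells thinned to 5000 UMIs the difference in its share fell from 29.4 to 22.4 percentage points. The cause of these changes was not tested. With the mouse as a replicate block the *Serpina3n* tissue difference stayed at 0.19 (limma adjusted p = 0.349), and in Oligo2 to Oligo4 the block raised the number of genes called from 0 to 6, with 0 listed serpins. The block changed no other call of a listed serpin.

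For the other serpins, whose differences passed no threshold, signs changed as follows. The *Serpine2* genotype difference became 0.167 (TMM), 0.165 (RLE) and 0.017 (hippocampus only) over all oligodendrocytes, -0.018 in Oligo2 to Oligo4 (cortex only) and -0.0028 in Oligo4 (log2 of the mean plus 0.1). The tissue difference over all oligodendrocytes became 0.088 for *Serpinb1a* and -0.0079 for *Serpine2* in WT libraries only, and -0.0065 for *Serpinb6a* in KO libraries only. In Oligo2 to Oligo4 it became 0.00055 (log2 of the mean plus 1) and 0.087 (WT only) for *Serpinb1a*, and -0.0081 (WT only) for *Serpine2*. For *Serpinb6a* it became 0.041 and 0.0096 (log2 of the mean plus 0.1 and plus 1), 0.0025 (median-centred), 0.045 and 0.043 (TMM and RLE) and 0.0085 (WT only).

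Leaving out each mouse in turn, the genotype difference over all oligodendrocytes ran from -0.473 to 0.0235 for *Serpinb1a*, -0.0485 to 0.121 for *Serpinb6a* and -0.0148 to 0.0108 for *Serpine2*. In Oligo2 to Oligo4 these ranges were -0.406 to 0.143, -0.0552 to 0.114 and -0.0103 to 0.0145. In Oligo2 they were -0.0777 to 0.118 for *Serpinb6a* and -0.0011 to 0.0122 for *Serpine2*. In Oligo3 they were -0.388 to 0.181 for *Serpinb1a*, -0.0593 to 0.104 for *Serpinb6a* and -0.0147 to 0.022 for *Serpine2*, and in Oligo4 -0.190 to 0.0244, -0.0332 to 0.125 and -0.0073 to 0.0079. The tissue difference ran from -0.124 to 0.0134 for *Serpinb1a* and -0.0090 to 0.0059 for *Serpinb6a* over all oligodendrocytes, and from -0.076 to 0.018 and -0.0153 to 0.0014 in Oligo2 to Oligo4. The *Serpinb6a* difference of tissue effects between genotypes ran from -0.0372 to 0.0075. With 2 mice per genotype, a single mouse decides these signs, and shares near 1% rest on few cells.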
